A study of Mus musculus with 24 samples.

Results

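Pcdhb16, Pcdhb17, Pcdhb18, Pcdhb19, Pcdhb20, Pcdhb21 and Pcdhb22 are the last 7 of the 22 genes of the mouse protocadherin beta cluster, which lies on chromosome 18. They were 7 of 19937 genes measured in the hindlimb buds of mouse embryos with and without a disrupted copy of Nipbl. The genes were selected on their log2 differences between the genotypes, since earlier results of these data showed lower levels at this end of the cluster in Nipbl+/- embryos. The difference between the genotypes is therefore a description of the chosen genes, given without a p of its own, and whether a member was called among all genes is part of that description and supports nothing, while spread, correlation between embryos and the relation to Nipbl within a genotype played no part in the choice.

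Clustered protocadherins are cadherin-like proteins of the cell surface that bind the same isoform on the neighbouring cell. They are best known from neurons, where each cell uses its own subset of isoforms and the branches of one cell recognise each other by them. Each beta gene is a single exon with its own promoter, and many of these promoters are bound by CTCF and cohesin, which bring them together with distant enhancers. Nipbl is the protein that loads cohesin onto chromosomes.

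RNA of the left and right hindlimb buds of each embryo was hybridised to its own array, at E10.5, for 12 wild type and 12 Nipbl+/- embryos. Nipbl+/- mice, here of the RRS strain, carry 1 disrupted copy of Nipbl, and no other allele or treatment is named for either group. The embryos are described as littermates, and the labels do not say which of them shared a litter. The labels call the embryos of a genotype biological replicates, and precision is limited by the number of arrays. The arrays were Affymetrix Mouse Gene 1.0 ST, with probes along the whole transcript, and all values below are log2 intensities after RMA normalization. Each of the 7 genes had 1 probe set, and the brightness of different probe sets does not rank transcripts by abundance. Protocadherin beta genes are close paralogs, and how much signal one transcript gives on the probes of another was not tested.

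Nipbl, the targeted gene, had wild type values of 10.32 to 10.72 with a median of 10.53, and in Nipbl+/- embryos it ran from 9.54 to 9.97 with a median of 9.89. No embryo went against its label, since the highest Nipbl+/- value lay below the lowest wild type value. The markers of the labelled tissue were bright. The hindlimb and limb mesenchyme genes Tbx4, Pitx1, Prrx1, Prrx2 and Twist1 lay at percentiles 92.5 to 99.1 of mean intensity over all genes, and the forelimb gene Tbx5 lay at percentile 22.1. Array medians ran from 7.24 to 7.39, with Nipbl+/- embryo 2 at the top, and this embryo also had the lowest Nipbl.

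Mutant embryos had the lower mean in all 7 genes, with mutant to wild type ratios from 0.700 for Pcdhb21 to 0.874 for Pcdhb20. In limma over all genes 6 of the 7 were called lower at an adjusted p under 0.05, where 0.527% of the 19937 genes were called lower, but this is the contrast on which they were chosen. In whole limb buds fewer cells that express a gene and less RNA per cell cannot be told apart.

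**Figure D1:**
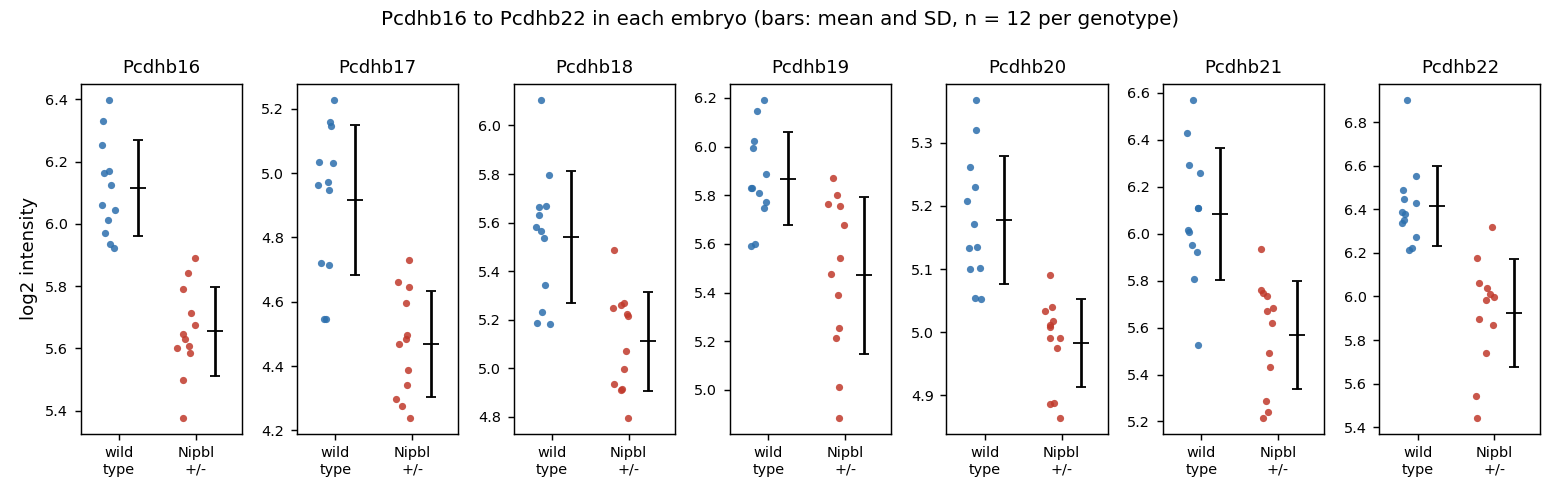
Log2 intensity of Pcdhb16 to Pcdhb22 by embryo, for 12 wild type (blue points) and 12 Nipbl+/- embryos (red points). Black marks give the mean ± SD per genotype. The vertical axes differ between panels, and only the panel of Pcdhb16 shows genotypes that do not overlap, with the highest mutant embryo at 5.89 and the lowest wild type embryo at 5.92.

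Pcdhb16 opens the group, next to Pcdhb15. In wild type its log2 intensity lay between 5.92 and 6.40 with a median of 6.09, and in mutant embryos it ran from 5.38 to 5.89 with a median of 5.64. The genotypes did not overlap, although the gap between them was only 0.031. A gap of this direction was seen in 8 genes, 0.0401% of all genes. The log2 difference of the means was -0.46 (standard error 0.059), and the SD was 0.15 in wild type and 0.14 in mutant embryos (n = 12 each).

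Pcdhb17 ran from 4.55 to 5.23 with a median of 4.97 in wild type, and from 4.24 to 4.73 with a median of 4.48 in Nipbl+/- embryos. The ranges overlapped, and 4 wild type embryos lay at or below the highest mutant embryo. The difference was -0.45 (standard error 0.077). Pcdhb18 had a range of 5.18 to 6.11 and a median of 5.57 in wild type, against 4.80 to 5.49 and 5.14 in mutant embryos. Here too 4 wild type embryos fell within the mutant range, and the difference was -0.43 (standard error 0.091). Both genes varied widely among wild type embryos: the SD of Pcdhb17 was 0.23, at percentile 95.7 of the SDs of all genes, and that of Pcdhb18 was 0.27, at percentile 98.1.

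Pcdhb19 had the most wild type embryos within the mutant range. It ran from 5.59 to 6.19 with a median of 5.83 in wild type, and from 4.88 to 5.87 with a median of 5.51 in Nipbl+/- embryos. These were 7 of 12, and 1 mutant embryo was not below the wild type mean. Counted from the other side, 5 mutant embryos lay above the lowest wild type embryo, against 7 for Pcdhb21 and 6 for Pcdhb18. The difference of -0.40 had the largest standard error of the group, 0.10, and it was the one member not called.

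Pcdhb20 had the smallest difference and the smallest spread of the 7. It ran from 5.05 to 5.37 with a mean of 5.18 in wild type, and from 4.86 to 5.09 with a mean of 4.98 in mutant embryos. Only 2 wild type embryos lay at or below the highest mutant embryo, although the difference was only -0.19 (standard error 0.039). Its SD of 0.10 in wild type and 0.069 in Nipbl+/- embryos lay at percentiles 28.9 and 6.43 of all genes. The mean intensities of the 7 genes lay between percentiles 9.68 and 27.7 of all genes, and dim probe sets tend to understate fold changes.

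Pcdhb21 and Pcdhb22 are the last genes of the cluster and had the largest differences of the 7. Pcdhb21 ran from 5.53 to 6.57 with a median of 6.06 in wild type, and from 5.22 to 5.94 with a median of 5.65 in Nipbl+/- embryos. Its difference was -0.52 (standard error 0.097), and 3 wild type embryos lay within the mutant range. Pcdhb22 ran from 6.21 to 6.90 with a median of 6.38 in wild type, and from 5.44 to 6.32 with a median of 5.99 in mutant embryos. Its difference was -0.49 (standard error 0.083), again with 3 wild type embryos in the mutant range. In 6 of the 7 genes the wild type mean was above all 12 mutant embryos, as it was in 237 genes, 1.19% of all genes. Ordered from the most negative difference of the 19937 genes, Pcdhb21 was at place 13, Pcdhb22 at 16, Pcdhb16 at 23, Pcdhb17 at 26, Pcdhb18 at 29, Pcdhb19 at 40 and Pcdhb20 at 231. From Pcdhb21 to Pcdhb19 the steps between neighbours in this order were smaller than the standard error of either gene.

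The genes on either side of the group had smaller differences. Pcdhb15, the neighbour before Pcdhb16, ran from 6.52 to 6.88 with a median of 6.68 in wild type. In Nipbl+/- embryos it ran from 6.30 to 7.06 with a median of 6.51. This mutant range enclosed every wild type embryo, with mutant embryo 2 at its top. At or above the lowest wild type embryo lay 6 mutant embryos, as for Pcdhb18, against 7 for Pcdhb21. For Pcdhb15, 10 of 12 mutant embryos were below the wild type mean. Its difference was -0.12 (standard error 0.066). After Pcdhb22 the next measured genes in RefSeq order were Slc25a2, a mitochondrial carrier of basic amino acids, and Taf7, a subunit of the general transcription factor TFIID, with differences of -0.0029 (standard error 0.060) and -0.0080 (standard error 0.080). Of Pcdhb1 to Pcdhb15, 0 of 15 were called in limma over all genes, where 0.527% of all genes were called lower and 0.286% higher. At such shares 0 of 15 does not set these genes apart from others. Among the 15, 3 had an unadjusted p under 0.05, a share not counted over all genes. With replicate number as a block 1 was called, Pcdhb3, beside 121 of 19937 genes called lower. The authors reported lower levels of multiple genes at both ends of the cluster, without naming the genes. The differences of Pcdhb1 to Pcdhb15 ran from -0.25 for Pcdhb3 to 0.07 for Pcdhb1, and 14 of the 15 lay below 0. Their median was -0.096, beside -0.0049 over all genes. None of these 15 values reached that of any member except Pcdhb20, whose -0.19 lay above the -0.25 of Pcdhb3. The neighbouring Pcdha and Pcdhg clusters were not analysed here, since 0 of 14 Pcdha and 0 of 22 Pcdhg genes were named by a probe set with a single symbol.

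**Figure D2:**
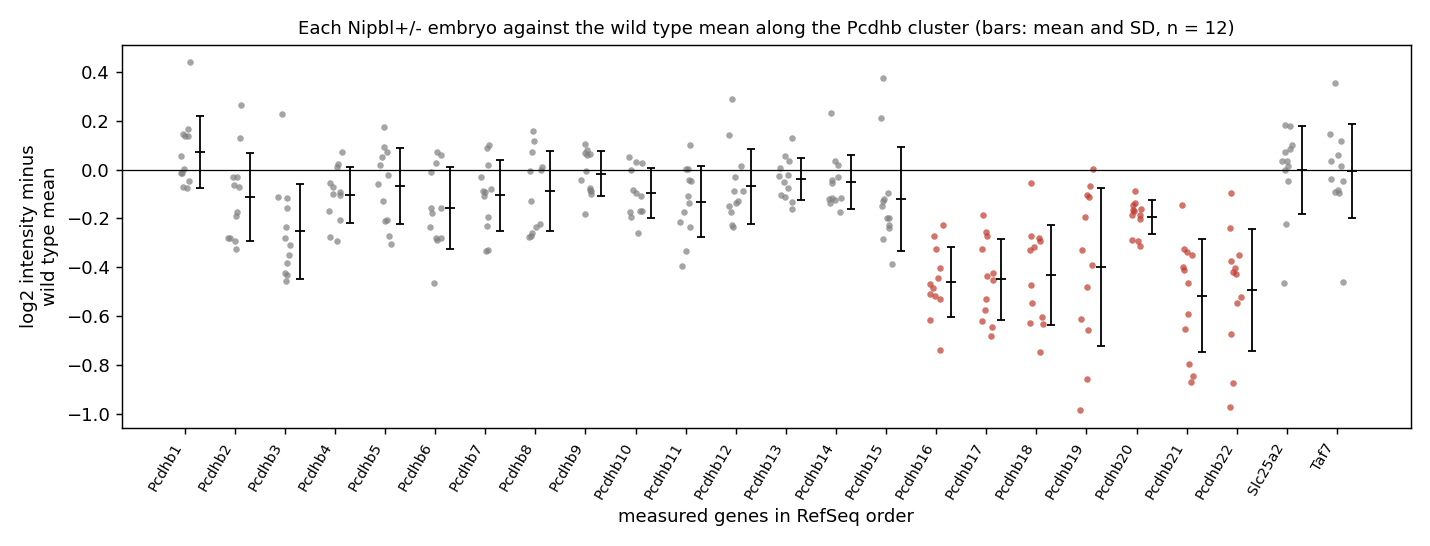
Log2 intensity of each of the 12 Nipbl+/- embryos minus the wild type mean, for the measured genes in RefSeq order (Pcdhb1 to Pcdhb15 and the genes after the cluster in grey, Pcdhb16 to Pcdhb22 in red), with the mean and SD of the embryos in black. The means stand at -0.12 for Pcdhb15 and -0.46 for Pcdhb16, and return to -0.0029 for Slc25a2.

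Among listed cohesin and chromatin factors, Nipbl and Stag1 were called. The list held 25 measured genes for cohesin, its loaders and regulators, CTCF, chromatin repressors and DNA methylation. Of these, 1 was called higher, where 0.286% of all genes were, and 1 was called lower, where 0.527% of all genes were. The lower one was Nipbl itself, with a difference of -0.67 (standard error 0.049). The higher one was Stag1, a cohesin subunit, with a difference of 0.22 (standard error 0.041, adjusted p = 0.00439 from limma). Ctcf, the DNA-binding partner of cohesin at these promoters, had a difference of 0.0070 (adjusted p = 0.988 from limma). Rad21, the cleavable cohesin subunit, had one of -0.01 (adjusted p = 0.980), and Smchd1, a repressor of clustered protocadherin genes, one of 0.0085 (adjusted p = 0.984).

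No marker of the other cells that a limb bud can hold was called. In limma over all genes 0 genes passed in each list, for neurons and nerve, ectoderm, endothelium, muscle precursors, macrophages and erythroid cells. Of all genes 0.527% were called lower and 0.286% higher. Lists this short would seldom hold a call at such shares, so nothing is read from the 0. For neurons and nerve, the cells in which protocadherins are best known, 8 of 10 genes were measured, and the mean of these 8 lay between 6.70 and 6.91 in wild type embryos and between 6.77 and 6.91 in Nipbl+/- embryos. All 4 macrophage genes lay below 0, with a median difference of -0.125, the smallest adjusted p being 0.247 for Csf1r (2 of the 4 had an unadjusted p under 0.05). The mean of these 4 genes lay between 6.52 and 6.80 in wild type embryos and between 6.37 and 6.64 in mutant embryos. Their part in the levels of the protocadherin genes was not tested.

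Spread among embryos of one genotype did not enter the choice of the genes. In limma on the absolute deviations from the genotype median, 0 of the 7 genes differed in spread after adjustment over all genes (adjusted p = 0.995 for each), where 0% of all genes did. Only Pcdhb19 had an unadjusted p under 0.05 (0.0452), with an SD of 0.19 in wild type and 0.32 in Nipbl+/- embryos, the latter at percentile 98.9 of all genes. A p that misses the threshold does not show equal spread.

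Individual embryos stood apart in several of the 7 genes at once. Among mutant embryos, numbers 11 and 12 lay below the mutant mean in all 7 genes, by 0.29 and 0.25 on average. Each held the lowest value of 3 genes, and the lowest value of the remaining one, Pcdhb20, was that of embryo 3. Mutant embryo 4 lay above the mutant mean in all 7. Among wild type embryos, number 10 had the highest value of 5 of the 7 genes and lay 0.28 above the wild type mean on average, but it was below that mean in Pcdhb19. Wild type embryo 6 was above the mean in all 7 genes, wild type embryos 3 and 12 were below it in all 7, and wild type embryo 7 had the lowest value of 4.

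In the rest of the cluster the mean deviations of the same embryos were smaller. These embryos were picked as extremes of the 7 genes. Smaller deviations in other genes can follow from that choice alone, so the values are a description. Over Pcdhb1 to Pcdhb15, mutant embryos 11 and 12 lay below the mutant mean in 10 and 8 of 15 genes, by 0.066 and 0.026 on average. Wild type embryo 10 lay 0.099 above the wild type mean, the highest of the 12 wild type embryos there too, and was below it in 4 of 15 genes. With all embryos the mean difference of the 7 genes was -0.42 and 6 were called, beside 105 of all genes called lower. Without mutant embryos 11 and 12 it became -0.366 and 5 were called, beside 64 of all genes. Without wild type embryo 10 it became -0.394 and all 7 were called, beside 89 of all genes. Since this contrast chose the genes, these counts are no sign of stability.

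**Figure D3:**
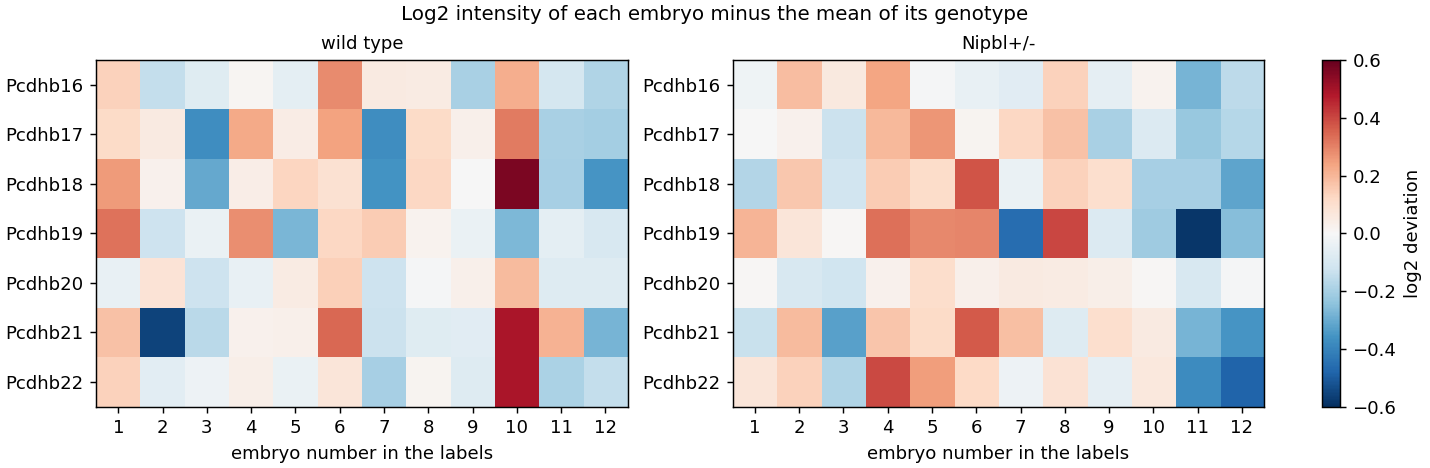
Log2 intensity of each embryo minus the mean of its genotype, as colour, for Pcdhb16 to Pcdhb22 (rows) in wild type and Nipbl+/- embryos (columns, by the number in the labels). The columns of wild type embryo 10 and of mutant embryos 11 and 12 are of one colour for most genes, with mean deviations of 0.28, -0.29 and -0.25.

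Most pairs of the 7 genes were positively correlated from embryo to embryo within a genotype. Over 12 wild type embryos the median Pearson r of the 21 pairs was 0.576, from -0.41 to 0.884, with 18 above 0. Over 12 Nipbl+/- embryos it was 0.600, from 0.0698 to 0.805, with all 21 above 0. Median Spearman rho was 0.573 and 0.601. The pairs share the same 12 arrays and are not independent of each other.

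These correlations were not called at the level of all genes. Of the 42 relations, 11 in each genotype had a two-sided permutation p under 0.05. The share of all genes reaching such a p with a member was not counted, so the 11 are not read as special to the group. For these pairs the second gene was ranked among 19936 genes by correlation with the first. Its place lay between 3 and 601 in wild type embryos. Among mutant embryos the best place was 19 and the last was 1981. In limma, which fitted every gene on each member and adjusted over all genes, 0 of the 42 were called, with the smallest adjusted p at 0.214 in wild type and 0.0578 in mutant embryos. Beside this, 0% of all genes were called on any member in either genotype, other than 0.0451% on Pcdhb20 and 0.361% on Pcdhb22 in mutant embryos. With the 2 embryos farthest from the median of the first gene of a pair left out, the median r was 0.39 in wild type and 0.467 in mutant embryos, and 16 and 20 of the 21 pairs were above 0. Without wild type embryo 10 the wild type median was 0.423, and without mutant embryos 11 and 12 the mutant median was 0.418.

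**Figure D4:**
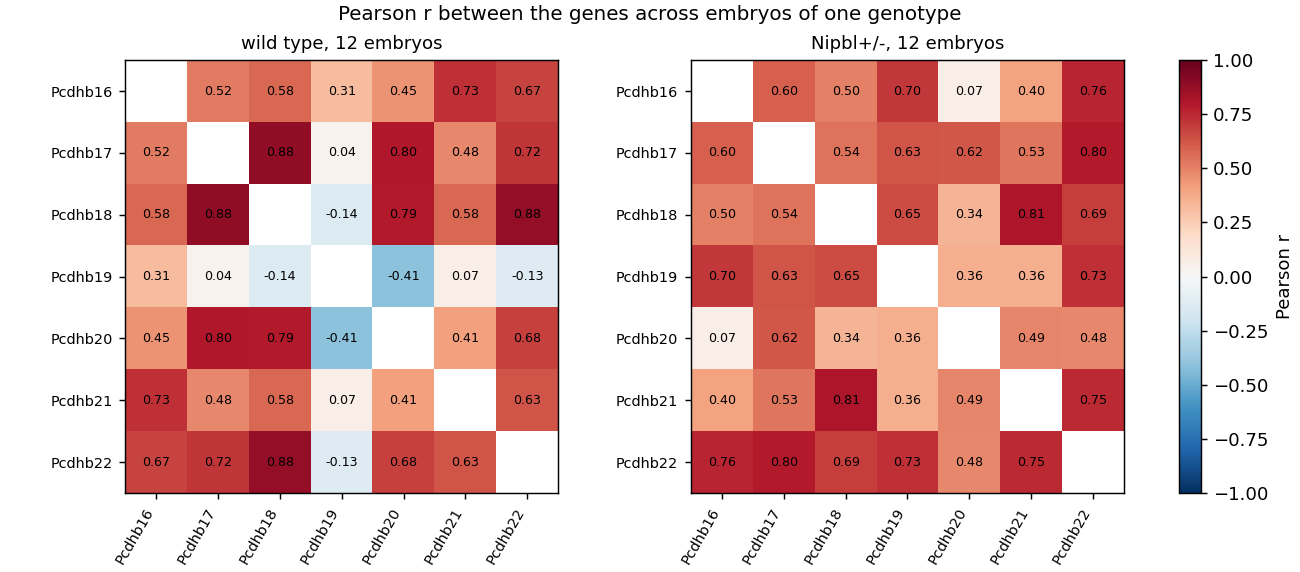
Pearson r between each pair of Pcdhb16 to Pcdhb22 over the 12 wild type (left) and the 12 Nipbl+/- (right) embryos, as colour and number. In wild type the row of Pcdhb19 runs from -0.41 to 0.31 while all other pairs are at 0.41 or above, and in mutant embryos every pair is above 0.

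The closest pair in wild type embryos was Pcdhb17 with Pcdhb18, which are neighbours. Their r was 0.884 (permutation p = 0.00012, adjusted p = 0.214 from limma) and rho 0.839 (permutation p = 0.00112), and r was 0.837 without the 2 farthest embryos. Among all other genes, Pcdhb18 was at place 3 in correlation with Pcdhb17. Pcdhb18 with Pcdhb22 followed, with r at 0.877 (permutation p = 0.00023, adjusted p = 0.372 from limma), rho at 0.832 (permutation p = 0.00135) and r at 0.734 without the 2 farthest embryos.

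In Nipbl+/- embryos the closest pairs were others. Pcdhb18 with Pcdhb21 had r at 0.805 (permutation p = 0.00201, adjusted p = 0.600 from limma), rho at 0.818 (permutation p = 0.00209) and r at 0.63 without the 2 farthest embryos. Pcdhb17 with Pcdhb22 had r at 0.795 (permutation p = 0.00145, adjusted p = 0.0578 from limma), rho at 0.853 (permutation p = 0.00083) and r at 0.712 without the 2 farthest embryos. In mutant embryos Pcdhb21 was at place 19 among all other genes in correlation with Pcdhb18, and Pcdhb22 at place 359 in correlation with Pcdhb17. The pair Pcdhb17 and Pcdhb18 had r at 0.541 (permutation p = 0.0705) in mutant embryos, with Pcdhb18 at place 3060. The slope of this pair was not shown to differ between the genotypes (adjusted p = 0.696 from limma).

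Pcdhb19 stood apart from the other 6 in wild type embryos. Its r with them had a median of -0.0451, from -0.41 with Pcdhb20 to 0.313 with Pcdhb16, and 3 of 6 were above 0, while the 15 pairs without Pcdhb19 ran from 0.408 to 0.884 with a median of 0.673. In Nipbl+/- embryos Pcdhb19 had a median of 0.641, from 0.363 to 0.728, close to the 0.541 of the other 15 pairs. The difference between the genotypes did not pass the test: the slopes had an unadjusted p under 0.05 for 4 of its 6 pairs, the smallest being 0.00772 with Pcdhb18, and adjusted p was 0.558 or more for all of the pairs. It also rested on single embryos. Without wild type embryo 10 the wild type median of Pcdhb19 was 0.342, with 5 of 6 above 0, and without mutant embryos 11 and 12 the mutant median was 0.441.

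The rest of the cluster was less correlated at the median, as a description with no test. The median r over the 21 pairs of Pcdhb1 to Pcdhb7 was 0.203 in wild type and 0.305 in mutant embryos, and over the 28 pairs of Pcdhb8 to Pcdhb15 it was -0.0592 and 0.313. Between a member and one of Pcdhb1 to Pcdhb15 it was 0.21 and 0.174 over 105 pairs.

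No relation between the 7 genes and the level of Nipbl was called within wild type embryos. Their r with Nipbl ran from 0.0424 to 0.328 with a median of 0.0679, and 0 of 7 were called in limma on the level of Nipbl (adjusted p from 0.345 to 0.932, and 0 of 7 with an unadjusted p under 0.05), where 21% of all genes were called. Between 67.4% and 96.0% of all genes had a larger r in size than the member had. Without the 2 embryos farthest in Nipbl, r ran from -0.118 to 0.461. Without wild type embryo 10, the median of the 7 genes became -0.102.

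Within Nipbl+/- embryos r with Nipbl ran from -0.026 for Pcdhb16 to 0.61 for Pcdhb20, with a median of 0.289. In limma 0 of 7 were called (adjusted p from 0.231 to 0.96, and 0 with an unadjusted p under 0.05), where 15.4% of all genes were called. Of 14 relations over both genotypes, only Pcdhb20 in mutant embryos had a permutation p of r under 0.05 (r = 0.61, p = 0.0322, adjusted p = 0.231 from limma), with rho at 0.573 (permutation p = 0.0557) and r at 0.608 without the 2 farthest embryos. Without the 2 embryos farthest in Nipbl, r of all 7 genes ran from 0.495 to 0.826 with a median of 0.608. Pcdhb19 had r at 0.368 and rho at 0.706 (permutation p = 0.0130), and its r was 0.826 without the 2 farthest embryos. The r of Pcdhb19 fell to 0.208 without mutant embryos 11 and 12. It was 0.0839 with the array's interquartile range as a covariate. The slopes on Nipbl were not shown to differ between the genotypes (adjusted p from 0.871 to 0.974).

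The relation to Nipbl rested in part on single embryos. Mutant embryo 2 had the lowest Nipbl, 9.54, with the others at 9.73 or above. It had the highest array median, 7.39, and the narrowest spread of values over the array among mutant embryos. Without it the r of the 7 genes with Nipbl ran from 0.483 to 0.779 with a median of 0.643, and 6 of the 7 had an unadjusted p under 0.05, as did 12.6% of all genes, against 0 of 7 and 33.9% with all mutant embryos. After adjustment 0 of 7 were called, and 0 of all genes were called as well (adjusted p of the members from 0.218 to 0.595 in limma). In wild type, embryo 3 had the lowest Nipbl, 10.32, and the narrowest spread of values over the array, and without it 0 of all genes were called and the median r of the 7 genes was 0.0424. Mutant embryos 11 and 12, the lowest in most of the 7 genes, had Nipbl at 9.78 and 9.73, the lowest after embryo 2. Without both, the median r with Nipbl was -0.0373. With the array's interquartile range as a covariate, the median r was 0.129 in mutant and 0.16 in wild type embryos. With no covariate it was 0.289 and 0.0679.

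**Figure D5:**
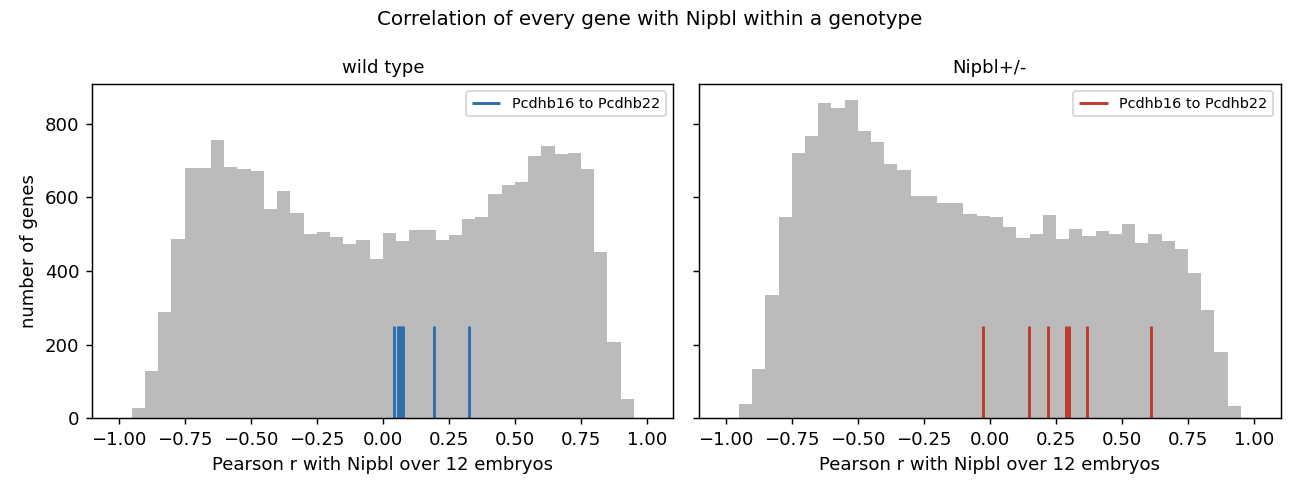
Number of genes by Pearson r with Nipbl (grey bars, width 0.05) over the 12 wild type and the 12 Nipbl+/- embryos, with the 7 genes Pcdhb16 to Pcdhb22 as coloured lines of equal height. The wild type lines lie between 0.0424 and 0.328 and the mutant lines between -0.026 and 0.61, inside the grey distribution.

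Setting each array's median to 0 moved the relation to Nipbl upward. The median r of the 7 genes became 0.218 in wild type, with 0 called beside 36.3% of all genes, and 0.432 in Nipbl+/- embryos, where Pcdhb20 was called (r = 0.826, adjusted p = 0.0262 from limma) and 27.6% of all genes were called too.

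Several genes outside the cluster were closely correlated with the group. With the genotype means removed, the genes outside the cluster most like the mean of the 7 over 24 embryos were Dipk1c (r = 0.869), Dcx, a microtubule-binding protein of migrating neurons (0.864), Lrba (0.859), Pmaip1, a promoter of apoptosis (0.846), and Meox2, a homeobox gene of the limb muscle lineage (0.844). These are the highest of 19930 genes and are given as a description, and Dipk1c and Pmaip1 also lie on chromosome 18. None of the 5 was called between the genotypes, with log2 differences of -0.07, -0.25, -0.02, -0.26 and -0.03. Set against the mean of the other 6, r was 0.859 for Pcdhb22, at place 2 of all genes ranked, 0.780 for Pcdhb18, 0.750 for Pcdhb17, 0.727 for Pcdhb16, 0.649 for Pcdhb21, 0.557 for Pcdhb20 and 0.385 for Pcdhb19, at place 2284. Nipbl had r at 0.249 with the mean of the 7, and Pcdhb1 to Pcdhb15 ran from -0.362 for Pcdhb11 to 0.543 for Pcdhb7.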

How the data were processed

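Total hindlimb bud RNA of 24 embryos, 12 of each genotype, was hybridised to 24 arrays. The authors used GenePattern's Expression File Creator, and RMA is named in the submitters' processing notes (version not given in the sources used here). The deposited values are log2 intensities per probe set. RMA subtracts background and equalizes the arrays' distributions, which can hide a shift common to most genes. The deposited values per probe set still differed between arrays, with medians from 7.24 to 7.39. Depth has no counterpart on arrays.

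Of 28159 probe sets 21640 had 1 gene symbol, and 21553 of these matched RefSeq genes of GRCm38.p6 by Entrez ID. For 954 genes with several probe sets the brightest over all arrays was taken, which left 19937 genes. The array's genome build is not named, so RefSeq served only for names and neighbour order. Of the arrays, 0 were identical to another.

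Groups came from the genotype in the labels. limma 3.58.1 in R 4.3.3 compared Nipbl+/- with wild type, with p adjusted over all genes by Benjamini-Hochberg and a threshold of 0.05, and likewise fitted absolute deviations from the genotype median (spread) and, within a genotype, each gene on Nipbl or on a member. Correlations were tested with 100000 permutations (two-sided, Python 3.11.15, scipy 1.17.1). The fits were tested on simulated data. Members and lists were chosen with earlier results of these data known. The genes named are the 7 members, Nipbl, the neighbouring genes, the other Pcdhb genes that are called or extreme, the 5 genes most like the members, called regulators, and Ctcf, Rad21, Stag1 and Smchd1. Marker genes of the tissue, and Csf1r for the smallest adjusted p of its list, are named outside this rule. Slc25a2 was the nearest measured gene after Pcdhb22, and Taf7 was added as the next. Alternatives covered the probe set, a filter at the 25th percentile of intensity, the variance model, the scale, array weights and replicate number. They also covered embryo sex (by Xist and Y-linked genes), the first residual component, array medians and rank correlation. Leaving out single embryos and a covariate for the array's interquartile range were added after seeing the data.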

Additional observations from a re-analysis of the deposited data

How the results depend on the processing

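The mean log2 difference of the 7 genes lay between -0.438 and -0.366 over the alternatives that held all 7. A filter on dim genes left only Pcdhb22, at -0.491. The count called lower was 6, from 5 to 7 over the alternatives other than that filter, under which 1 was called. Of all 19937 genes 105 were called lower with the main settings, and from 64 to 303 over those alternatives. Under the filter 115 of 14952 genes were called lower. Pcdhb19 was called in 6 of 13 alternatives, Pcdhb18 in 11 and Pcdhb20 in 12, and Pcdhb16, Pcdhb17, Pcdhb21 and Pcdhb22 in each alternative that tested them. The genes were chosen on this contrast, so these counts describe them and are no sign of stability. With replicate number as a block, 7 members and 1 of the 15 other Pcdhb genes (Pcdhb3, adjusted p = 0.0228 from limma) were called. Beside them 121 of 19937 genes were called lower. The labels do not say what a number marks, and the embryos were not taken as pairs: over all genes the residuals of same-numbered embryos correlated from -0.355 to 0.282, with 5 of 12 over 0.1, and 3 of 12 wild type embryos correlated best with their own number. Within a genotype each number is 1 embryo, so no paired analysis of the correlations was possible. The median r with Nipbl moved in wild type from 0.0679 to 0.218 with array medians set to 0 and to -0.102 without embryo 10, and in Nipbl+/- embryos from 0.289 to 0.643 without embryo 2 and to -0.0373 without embryos 11 and 12. With array medians set to 0, 1 member was related to Nipbl in mutant embryos. The median r of Pcdhb19 with the other 6 in wild type moved from -0.0451 to 0.342 without embryo 10. The cause of these shifts was not tested. The median pairwise r of all 7 and the spread kept their direction and side of the threshold under each alternative run. The genes are dim, so small differences may be missed, and no count could be made for Pcdha and Pcdhg genes.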
